A study of Rattus norvegicus with 3 samples.

Results

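The ciliary margin is the rim of the optic cup, where the neural retina meets the epithelia that become the ciliary body and the iris. Its cells lie beside the pigmented layer and are known to express BMP ligands, targets of canonical Wnt signaling and a set of transcription factors that the central retina lacks or carries at a low level. The 8 genes described here, Wfdc1, Gja1, Otx1, Zic1, Zic2, Msx1, Bmp4 and Bmp7, are a working set named for this rim, out of 18425 genes in the deposited table. They were chosen by their level in the saline library, which was high, so the values of that library are given as a description and no test was made on them. All 8 symbols were found, each with 1 gene identifier and with whole-number counts in every library.

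Retinas of wild-type Sprague Dawley rats were taken at postnatal day 4 (P4), after 1 μl of citrate buffer (pH 4.5), saline, or streptozotocin (STZ) had been injected into the vitreous at P1. STZ is an alkylating glucosamine-nitrosourea compound. It was given at 10 μg, in citrate buffer, so saline differs from both other groups in lacking that buffer. Each group was 1 library made from dissected retinas, with the number of animals behind it not given in the sources used here. The spread between animals was therefore not measured, and no difference below has a replicate check or a p-value. Treatment, animal and dissection cannot be told apart. For its functional and morphological measurements the study put STZ in the right eye and citrate buffer in the left eye of each rat, and whether the STZ and buffer libraries share rats in this way is not given in the sources used here.

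The gene totals were 21992749 reads in buffer, 21977876 in saline and 22031287 in STZ, so depth was almost the same. The labelled tissue was checked with 17 retinal genes, among them Crx, Pax6, Rax and Nrl. All 17 had reads in every library, and their median log2 fold change in saline against buffer was 0.04. In STZ against buffer it was 0.01, with Rcvrn higher at a fold of 1.62 and Lhx2 lower at 0.603. Lhx2 was lower in STZ against saline too, at 0.568. Lens genes stood apart in the STZ library, where 10 of them summed to 2612 reads, against 585 in saline and 263 in buffer. Most of the STZ reads were from the crystallins Cryaa, Cryba1, Crygd and Crygc, at 928, 731, 519 and 181. The counts of Crygd, Crygc and Mip are fractional. Not all lens genes stood apart, with Mip at 73 reads in buffer, 73 in saline and 86 in STZ.

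Levels are given as FPKM (fragments per kilobase of gene length, corrected for library size), and beside them as estimated reads. A fold change is (FPKM + 1)/(FPKM + 1), by the formula of the study's methods. With the thresholds given there, a gene counted as higher above a log2 fold change of 0.62, or about 1.5-fold, and as lower below a fold of 0.65. This scale holds down the fold of a weakly expressed gene. A count ratio divides the share of 1 library's reads that fell on a gene by the share in another library. Its 95% interval (exact, Clopper-Pearson) covers counting error only.

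The members spanned a wide range of levels. Zic2 was the most abundant in every library, at 23.1 FPKM in buffer, 26.5 in saline and 16.2 in STZ, and Msx1 the least, at 0.12, 0.15 and 0.060. In buffer, Zic2 stood above 73.3% of all genes and Msx1 above 15.6%. The 8 genes summed to 1923 reads in buffer, 3389 in saline and 1502 in STZ, and Zic2 held 68.4%, 44.6% and 61.6% of these. In buffer the order was Zic2, Zic1, Bmp7, Gja1, Wfdc1, Bmp4, Otx1, Msx1. The counting intervals of Bmp7 and Gja1 overlapped, as did each neighboring pair from Wfdc1 down to Msx1. In saline the order became Zic2, Wfdc1, Gja1, Zic1, Bmp7, Bmp4, Otx1, Msx1, and Wfdc1 and Gja1 were the only neighbors whose intervals overlapped. In STZ the order was Zic2, Bmp7, Gja1, Zic1, Wfdc1, Bmp4, Otx1, Msx1, with Bmp7, Gja1 and Zic1 overlapping as neighbors and likewise the 4 lowest genes.

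**Figure D1:**
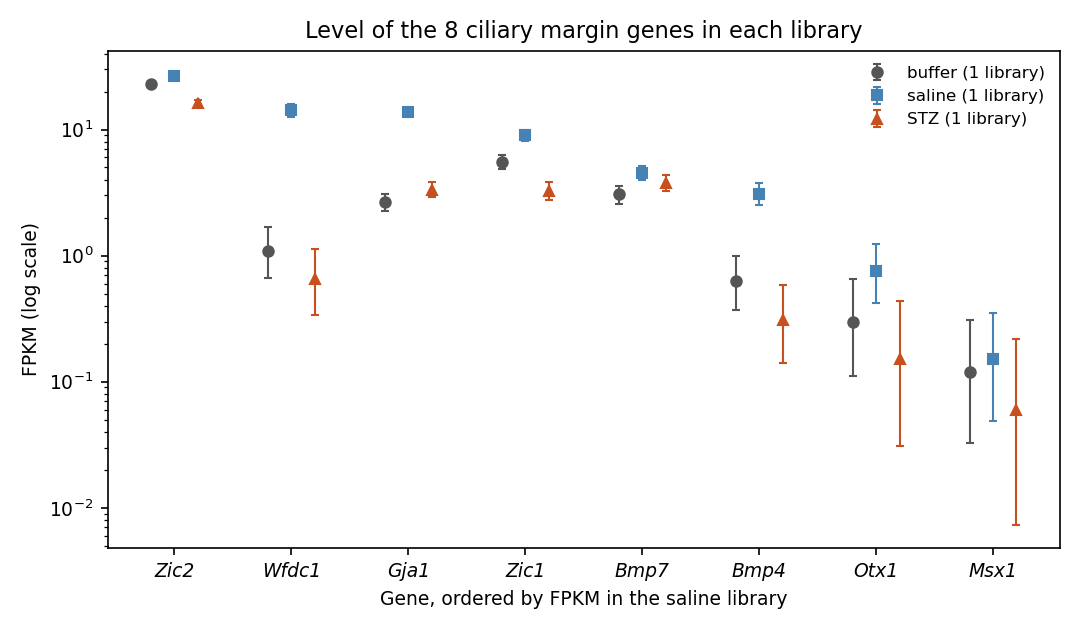
FPKM on a log axis of the 8 genes in the buffer, saline and STZ libraries (1 library each), ordered by the saline level, with bars for the exact Poisson 95% counting interval. Wfdc1, Gja1 and Bmp4 lie at 14.2, 13.7 and 3.08 FPKM in saline and below 4 FPKM in both other libraries, whereas Zic2, Bmp7 and Msx1 lie closer together.

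In saline against citrate buffer, 3 of the 8 genes were higher and 0 were lower, where 1.00% of all 18425 genes were higher and 0.429% were lower. Because the genes were chosen for a high saline library, nothing is read from this difference. In RNA from bulk tissue, fewer cells of a kind and less RNA per cell cannot be told apart. The 3 genes were Wfdc1, Gja1 and Bmp4. All 8 folds were above 1, from 1.03 for Msx1 to 7.25 for Wfdc1, and the median log2 fold change was 0.53, beside 0.01 over all genes. By the counting interval, 6 of the 8 ratios lay above 1, those of Otx1 and Msx1 being the exceptions. In these 2 libraries the 6 ratios ran from 1.15 for Zic2 to 12.9 for Wfdc1, which is given as a description.

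Wfdc1 encodes a secreted protein with a whey acidic protein domain. It had 20 reads in buffer, 258 in saline and 12 in STZ, or 1.09, 14.2 and 0.65 FPKM. Only the saline library was high, and its fold against buffer ranked 5th from the top of all genes. The count ratio of saline to buffer was 12.9 (95% counting interval 8.19 to 21.5), while the interval of STZ against buffer included 1, at a ratio of 0.599 (0.267 to 1.29).

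Gja1 encodes connexin 43, the gap junction protein that couples the pigmented and nonpigmented layers of the ciliary epithelium and is also found in astrocytes. Its reads were 169 in buffer, 876 in saline and 214 in STZ, or 2.65, 13.7 and 3.34 FPKM. The count ratio of saline to buffer was 5.19 (4.40 to 6.15), which does not overlap the interval of Wfdc1. This, like the other comparisons of members' saline ratios below, is a description, since the genes were chosen for that library. The FPKM of Wfdc1 was 0.411 of that of Gja1 in buffer, 1.03 in saline and 0.195 in STZ. Gja1 differed from most other members in STZ, where its fold against buffer was 1.19 and its count ratio 1.26 (1.03 to 1.56).

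Bmp4 and Bmp7 encode secreted ligands of the bone morphogenetic protein family, and Bmp4 is known to be made in the dorsal optic cup. Bmp4 had 18 reads in buffer, 102 in saline and 9 in STZ, or 0.63, 3.08 and 0.31 FPKM. Its fold in saline against buffer was 2.50, and its count ratio was 5.67 (3.41 to 9.95). Bmp7 had 149, 220 and 184 reads, or 3.06, 4.52 and 3.77 FPKM. Its fold was 1.36, short of the threshold, with a count ratio of 1.48 (1.20 to 1.83). The intervals of the ligands did not overlap, and Bmp4 stood at 0.206 of the FPKM of Bmp7 in buffer, at 0.681 in saline and at 0.0822 in STZ.

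Zic1 and Zic2 encode zinc finger factors of 1 family. Zic1 had 241 reads in buffer, 403 in saline and 153 in STZ, or 5.56, 9.01 and 3.27 FPKM. Its log2 fold change in saline against buffer was 0.61, just short of 0.62, and its count ratio was 1.67 (1.42 to 1.97). Zic2, which also guides uncrossed axons of retinal ganglion cells, had 1316, 1510 and 925 reads. Its fold was 1.14, and its count ratio of 1.15 (1.07 to 1.24) lay below the interval of Zic1.

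Otx1 and Msx1 encode homeodomain factors, the first required for the ciliary body in mice and the other a known BMP target. They had few reads. Otx1 had 6 in buffer, 15 in saline and 3 in STZ, and its count ratio of 2.50 in saline against buffer had an interval of 0.917 to 7.87. Msx1 had 4, 5 and 2 reads, with a ratio of 1.25 (0.269 to 6.30). For Msx1 no difference was detectable at this depth in any comparison.

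**Figure D2:**
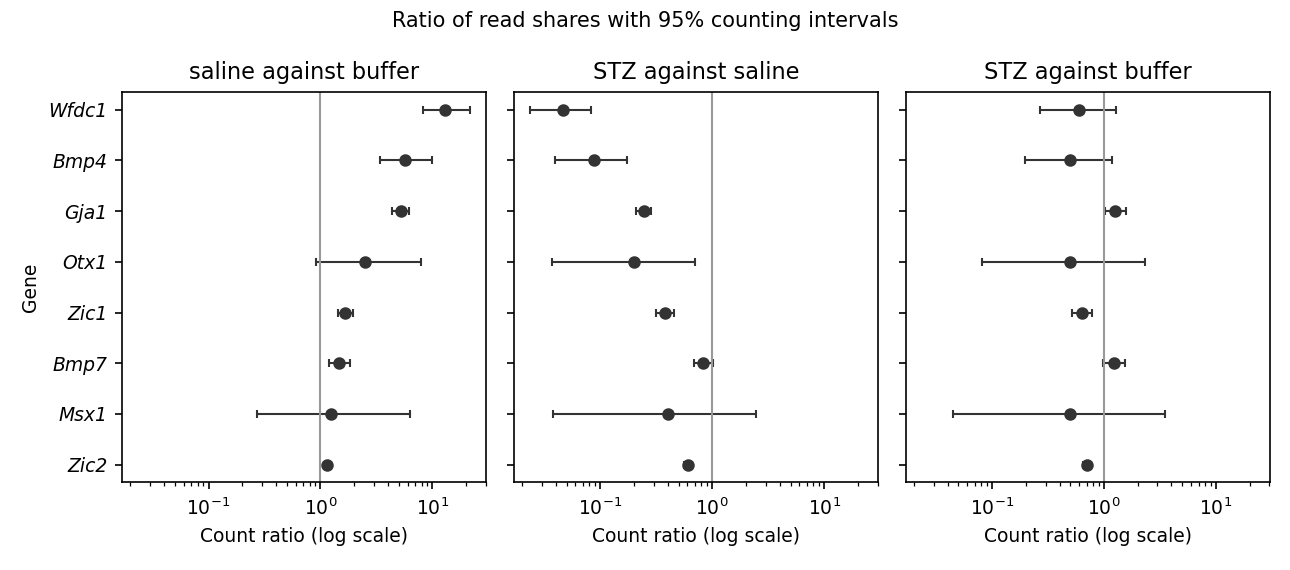
Count ratio on a log axis of each of the 8 genes in saline against buffer, STZ against saline and STZ against buffer, with exact Clopper-Pearson 95% counting intervals and a line at 1. In saline against buffer the ratios run from 1.15 for Zic2 to 12.9 for Wfdc1, and in STZ against buffer 5 of the 8 intervals include 1.

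**Figure D3:**
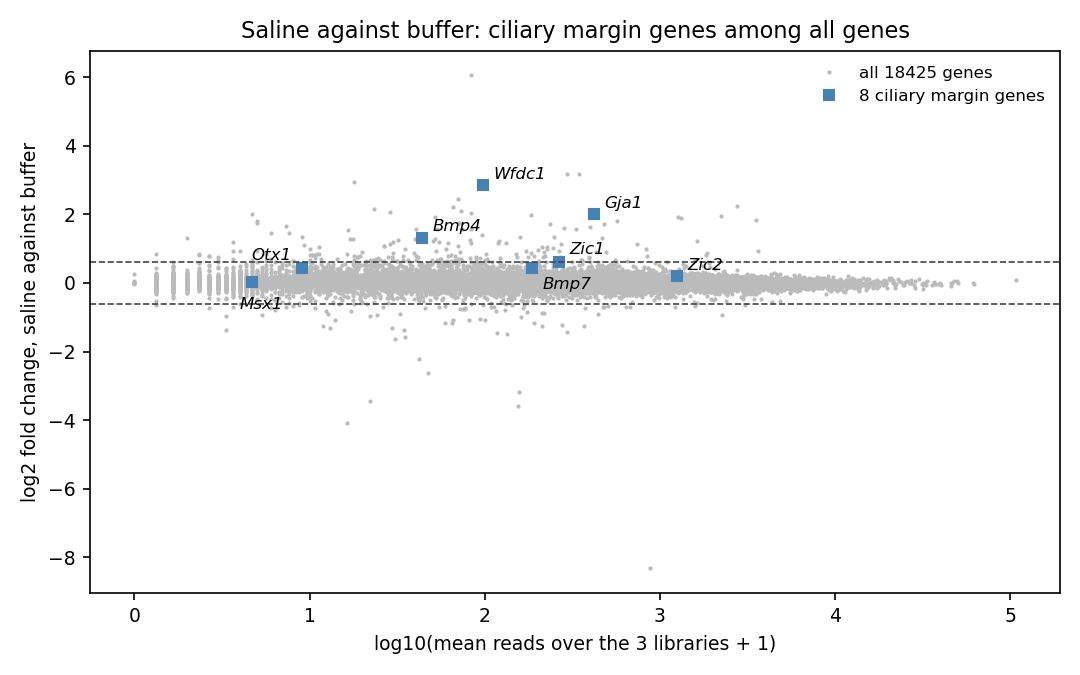
Each point is a gene, with the log10 of its mean reads over the 3 libraries plus 1 on the x axis and its log2 fold change in saline against buffer on the y axis, and dashed lines at the thresholds. Wfdc1, Gja1 and Bmp4 lie above the upper line, Zic1 just under it, and Msx1 among the genes with the fewest reads.

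STZ against saline uses the saline library again, so its values are not independent of those above. Of the 8 genes, 5 were lower and 0 were higher, where 1.75% of all genes were lower and 2.04% were higher. The 5 were Wfdc1, Gja1, Bmp4, Zic1 and Zic2, with folds of 0.109, 0.295, 0.321, 0.427 and 0.625. Otx1 had a fold of 0.657, short of 0.65, from 15 and 3 reads, with a count ratio of 0.199 (0.0370 to 0.705). Bmp7 was closest to saline among the genes with more than 100 reads in every library, with a count ratio of 0.834 (0.682 to 1.02). The median log2 fold change was -0.95, beside 0 over all genes.

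In STZ against citrate buffer, which leaves the saline library out, 0 of the 8 genes passed a threshold in either direction, where 2.25% of all genes were higher and 1.04% were lower. The median log2 fold change was -0.25, beside 0.02 over all genes, with 6 folds below 1. Both Zic genes had a ratio below 1 by more than the counting error, 0.634 for Zic1 (0.514 to 0.779) and 0.702 for Zic2 (0.644 to 0.764). The fold of Zic1 was 0.651, next to the threshold of 0.65, and with TMM scaling, median-of-ratios scaling, deposited TPM or a pseudocount of 0.1 it passed, at 0.636, 0.637, 0.621 and 0.595. Bmp4, at 18 and 9 reads, had a ratio of 0.499 (0.198 to 1.17). For Zic1 and Bmp4 the FPKM and the reads imply gene lengths that differ between libraries, by a factor of 1.08 and 1.16, so their FPKM folds and count ratios are not equal.

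Other genes known from the ciliary margin and the ciliary epithelium were set beside the members, 14 of 15 listed being in the table. Across the lists used here, Msx2 stands in 3, and Aldh1a1, Wnt2b and Crx in 2 each. Of the 14, 6 were higher in saline than in buffer and 0 were lower, with a median log2 fold change of 0.56. With a pseudocount of 0.1 in place of 1, the median was 1.19, beside 0.89 for the members. Tgfb2, a growth factor and the gene with the most reads in this list, had a fold of 1.02. Aldh1a1, a retinaldehyde dehydrogenase of the dorsal retina, had 1904 reads in buffer, 6838 in saline and 1904 in STZ. Besides it, 5 genes passed, namely Aqp1, a water channel, Col9a1, a collagen IX chain, Ltbp2, a matrix protein of the zonule, Wls, a carrier for Wnt secretion, and Cdh3, or P-cadherin. Ltbp2 had 10, 159 and 8 reads, and its count ratio in saline against buffer was 15.9 (8.43 to 33.8). For Aqp1, with 10, 100 and 7 reads, it was 10.0 (5.22 to 21.5). Col9a1 had 1131, 2726 and 1032 reads, with a ratio of 2.41 (2.25 to 2.59). Like Wfdc1, these 3 genes were high in the saline library alone. In STZ against saline 7 of the 14 were lower, the same 6 genes and Mecom, and in STZ against buffer only Ccnd2 passed, being higher at a fold of 2.22. Wnt2b, a ligand of the margin with 215, 193 and 214 reads, had the only fold of this list below 1 in saline against buffer. Its count ratio there was 0.898 (0.736 to 1.10), an interval that includes 1.

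Genes that mark the dorsal and the ventral retina, the axis along which Bmp4 is graded, were counted as well. Of 6 dorsal genes, 3 were higher in saline than in buffer, with a median log2 fold change of 0.57 and all 6 folds above 1. They were Aldh1a1, Tbx5 and Efnb2. Tbx5, a T-box factor induced by Bmp4, had 150, 305 and 92 reads, with a count ratio of 2.04 (1.67 to 2.49). Efnb2, an ephrin, had 582, 920 and 445 reads. Of 5 ventral genes 0 passed, with a median of -0.10 and 4 of the 5 counting intervals including 1, and Ephb2, the ventral gene with the most reads, had a fold of 0.932. In STZ against buffer the medians were -0.26 for the dorsal and -0.28 for the ventral genes, and 0 genes of either list passed.

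Among 34 other genes of the BMP pathway, only 1 passed a threshold between the controls. The fold scale holds down weakly expressed genes, so count ratios in saline against buffer are added for some. The 6 other ligands had few reads, 66 in buffer, 94 in saline and 57 in STZ in all, a median log2 fold change of 0.06 in saline against buffer and 0 genes past a threshold. Of them Bmp2 had the most reads, with 19, 38 and 16. Its count ratio in saline against buffer was 2.001 (1.125 to 3.675), while the intervals of the remaining ligands in this list included 1. The 6 receptor genes had a median of -0.02, with 0 past a threshold, and Bmpr2 a fold of 0.862. The 4 Smad genes, which encode the intracellular carriers of the signal, had a median of 0.01, with 0 past a threshold and Smad5 at 1.06. The 12 inhibitors had a median of 0.09 and 0 past a threshold, and Twsg1, the most abundant by reads, was at 1.07. By count ratio, Grem1, with 10, 31 and 25 reads, was at 3.10 (1.48 to 7.09) and Bambi at 1.44 (1.048 to 1.995). The intervals of Chrdl1, Smad7 and Twsg1 also lay above 1, while Fst was at 0.816 (0.688 to 0.967). Of the 6 target genes, only Id3 passed, from 323, 558 and 300 reads, at a count ratio of 1.73 (1.51 to 1.99), and all 6 folds were above 1, with a median of 0.17. Id1, the target with the most reads, was at 1.10.

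In STZ against buffer 0 genes of the receptors, inhibitors, targets and other ligands passed. Of the Smads, Smad9 was lower, listed at 57, 40 and 0 reads with fractional counts. In STZ against saline, Id3 was lower, at 0.547, as was the inhibitor Chrdl1, at 0.603.

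Canonical Wnt signaling is strongest at the margin, and 12 of its genes were counted. Only Notum, a secreted enzyme that inactivates Wnt ligands, was higher in saline than in buffer, and 0 were lower. Notum had 7 reads in buffer, 185 in saline and 2 in STZ, with a count ratio of 26.4 (12.6 to 66.7), an interval that overlaps that of Wfdc1. The median of the 12 was 0.15, with Dkk3, by far the most abundant by reads, at 1.03 and Axin2 at 1.09. By count ratio in saline against buffer, Tcf7 was at 1.445 (1.08 to 1.94). The intervals of Nkd1, Sfrp2 and Dkk3 also lay above 1, and those of the remaining Wnt genes included 1. In STZ against saline, Notum and Tcf7 were lower, and in STZ against buffer 0 of the 12 passed. By count ratio in STZ against buffer, Axin2 was at 0.741 (0.628 to 0.873). The intervals of Znrf3, Nkd1 and Dkk3 also lay below 1, while Lgr5 was at 1.34 (1.14 to 1.58).

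Close relatives of the members did not all follow them. Of 17 such genes, only Zic4 was higher in saline than in buffer, at 13, 45 and 11 reads with a count ratio of 3.46 (1.84 to 7.00). Zic5 had a ratio of 1.10 (0.988 to 1.23). In STZ against buffer, Zic5 had a fold of 0.697 and Zic4 of 0.955. The connexin genes Gja3, Gja4, Gjc1 and Gjd2 were not past a threshold in any comparison, and Gjb2, Gjb6, Gjb1 and Gja5 had 5 reads or fewer in every library. Crx, a photoreceptor factor of the Otx family and the relative with the most reads, had a fold of 0.910 in saline against buffer, and Otx2 had one of 0.921.

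Markers of tissues that border the margin were counted in the same way, and their part in the members' values was not tested. Of 11 pigment cell genes, 5 were higher in saline than in buffer, Pmel, Tyr, Tyrp1, Dct and Mlana, all of melanin synthesis or the melanosome, and 0 were lower. Pmel had 252, 940 and 240 reads, with a count ratio of 3.73 (3.25 to 4.31), and Tyr had 16, 118 and 14 reads. Rpe65, which defines the mature pigment epithelium, was at 0, 2 and 2 reads. The summed level of the pigment list was 212 FPKM in buffer, 220.0 in saline and 178 in STZ. Most of it came from Rlbp1, at 155, 146 and 122 FPKM, and Ttr, at 46.2, 38.7 and 44.0. The sum therefore does not follow the melanin genes. The list's median log2 fold change in saline against buffer was 0.22. This median was 1.06 over the 7 genes with a mean of 10 or more reads, and 1.25 over the list with a pseudocount of 0.1.

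In saline against buffer, the median of the 10 lens genes was 0.83, with 6 higher, Cryaa, Cryba1, Grifin, Crygc, Crygd and Bfsp1, and 0 lower. They differed from the members in STZ, where 4 of them were higher than in saline. Of 10 periocular mesenchyme genes, Col1a2 and Lum were higher in saline, from 0 reads in buffer to 59 and 18. Lum had 3 reads in STZ. Dcn, with 1, 10 and 0 reads, had a count ratio in saline against buffer of 10.0 (1.42 to 434). In that comparison 3 of the 10 folds were below 1. The counts of Col1a2 are fractional, and it was higher in STZ too, at 104 reads and a fold of 2.12 against buffer. Col1a1, the gene with the most reads in the list, had 291, 316 and 250 and a fold of 1.06 in saline against buffer. The list had a median of 0.10 and a summed level of 3.01 FPKM in buffer, 4.64 in saline and 3.63 in STZ.

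In the remaining marker lists there were 0 genes past a threshold in saline against buffer. Of the retinal astrocyte genes, which matter for Gja1, Gfap had a fold of 1.18, Pax2 of 0.979 and Aldh1l1 at most 1 read per library, and the list's median was 0.13. By count ratio, Aqp4, with 28, 54 and 27 reads, was at 1.93 (1.20 to 3.16) and Gfap at 1.21 (1.05 to 1.41). The intervals of the other astrocyte genes included 1. In STZ against buffer 3 of the 6 astrocyte genes were lower, Pdgfra, Pax2 and S100b, while Gja1 had a fold of 1.19. In STZ against saline, where Gja1 was lower, 4 of the 6 were lower as well, S100b, Pdgfra, Gfap and Pax2, with a median of -0.73. The medians in saline against buffer were 0 for 6 surface and corneal epithelium genes, -0.15 for 6 smooth and iris muscle genes and 0.15 for 5 blood genes. The genes with the most reads in these lists, Krt15, Myh11 and Hba1, had folds of 0.934, 0.802 and 1.36, and Pdgfra among the astrocyte genes had 0.915. Krt14, which defines surface epithelium, was at 0, 0 and 1 read. Krt5, Trp63, Oca2 and Cpamd8 were not analysed here.

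**Figure D4:**
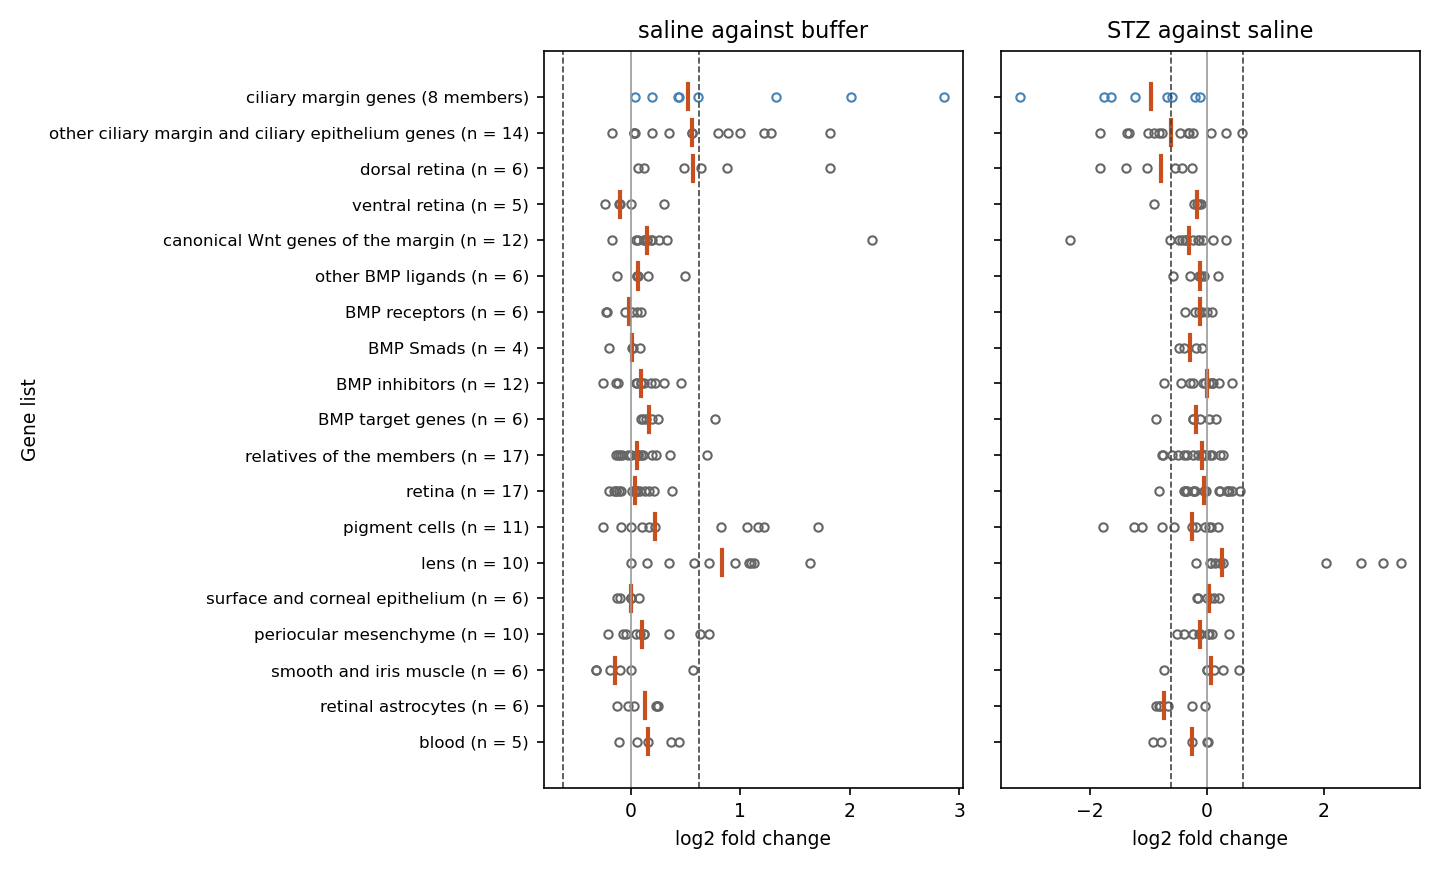
Log2 fold change in saline against buffer (left) and STZ against saline (right) of the 8 genes and of every gene in the 18 lists, with a pseudocount of 1, 1 circle a gene, with a bar at each list's median and dashed lines at the thresholds. The medians of the members, the other ciliary margin genes and the dorsal genes lie at 0.53, 0.56 and 0.57 on the left, and the lens genes lie at 0.83 on the left and reach the highest values on the right.

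Other genes were ordered by their distance to the members' median count ratios, 2.05 in saline against buffer and 0.616 in STZ against buffer. That point is the pattern of no single member and uses the saline values by which the members were chosen, so nearness to it describes these libraries and shows no likeness to a given member. In all, 12792 genes of 50 or more reads on average were compared. The 8 nearest were Mboat1, Tbx5, Pear1, Stox1, Col9a2, Iqgap2, Olfml2a and Col6a2. Mboat1, a membrane-bound acyltransferase, had 356 reads in buffer, 723 in saline and 219 in STZ. Col9a2, the partner chain of Col9a1 in collagen IX, had 668, 1386 and 437.

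Promoters of 4 of the 8 genes, Gja1, Zic2, Msx1 and Bmp4, were found in RefSeq's sequences for the assembly GRCr8. Wfdc1, Otx1, Zic1 and Bmp7 were not. Those of Gja1 and Bmp4, which had the larger folds in saline against buffer among these 4, are shown to give the context of both genes, as the 250 bases before the annotated start, 5′ to 3′ on the strand of the gene. That of Gja1 lies at chr20:36302314-36302563 on the plus strand and that of Bmp4 at chr15:22101934-22102183 on the minus strand. No letters are in capitals, since none of the motifs searched was found.
Gja1: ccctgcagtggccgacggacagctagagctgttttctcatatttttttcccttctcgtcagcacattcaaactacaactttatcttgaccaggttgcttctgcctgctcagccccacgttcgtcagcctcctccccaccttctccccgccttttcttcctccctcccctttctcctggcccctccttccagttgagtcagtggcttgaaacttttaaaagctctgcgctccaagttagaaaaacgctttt
Bmp4: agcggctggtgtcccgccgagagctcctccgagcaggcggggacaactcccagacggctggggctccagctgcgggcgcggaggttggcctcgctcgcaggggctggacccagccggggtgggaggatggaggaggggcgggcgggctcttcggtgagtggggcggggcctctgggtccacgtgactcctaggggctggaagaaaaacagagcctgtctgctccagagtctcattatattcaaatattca

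The window searched ran from 250 bases before to 50 after the start, on both strands, for CTTTGAT or CTTTGAA (TCF/LEF), TAATCC (OTX) and GGCGCC (SMAD). None of the 3 motifs was in any of the 4 windows, while 8.73%, 7.14% and 11.0% of 33365 rat promoters of that length held them. The G and C share of the window was 50.3% for Gja1, 65.0% for Bmp4, 73.0% for Msx1 and 74.3% for Zic2, beside a median of 51.7% over all promoters.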

How the data were processed

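RNA from rat retinas was sequenced in 3 libraries, 1 per group. The authors prepared TruSeq libraries, trimmed the reads and mapped them with TopHat2, discarding reads with several locations, and per the labels the build was rn6. The annotation and tool versions are not given in the sources used here. The authors deposited FPKM, TPM and estimated counts per gene. About 13% of the estimated counts deposited are fractional, and they were rounded to whole numbers. Tables of the series and of single samples were equal.

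The members, the 18 lists and the named genes were chosen with earlier results of these data known. By rule, the text names all members, list genes past a threshold in saline against buffer, the gene with the most reads in each list, and the 8 genes nearest to the members' median count ratios; a few others were chosen after their values were seen, and some genes under this rule are left out of the text. Alternatives tried were thresholds of 2 and 0.5, a pseudocount of 0.1, TMM factors (edgeR 4.0.16), median-of-ratios factors (DESeq2 1.42.0), CPM computed from the counts, deposited TPM, a minimum mean of 10 counts, and a counting interval that excludes 1. No count model was fitted and no p-value computed, since no group has replicates. Reads were not tagged with molecular identifiers and may repeat a molecule, so the intervals cover counting error only. Python 3.11.15, scipy 1.17.1 and R 4.3.3 were used. The calculations were tested on simulated data. Of 18425 gene identifiers, 17120 matched RefSeq's table for GRCr8, whose coordinates were used only for the promoters.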

Additional observations from a re-analysis of the deposited data

How the results depend on the processing

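With 1 library per group, no replicate could be left out. No paired analysis was possible because each group holds 1 library and no test was made. The direction of all 24 member folds, 8 in each of 3 comparisons, held under a pseudocount of 0.1, TMM and median-of-ratios scaling, CPM and deposited TPM. In saline against buffer, 3 members were higher, and 5 with a pseudocount of 0.1, 5 with deposited TPM and 6 by the counting interval. In STZ against buffer, 0 were lower, and 4 with a pseudocount of 0.1, 1 with TMM scaling, 1 with median-of-ratios scaling, 1 with deposited TPM and 2 by the counting interval, by which 1 was higher. In STZ against saline, the median log2 fold change of -0.95 became -1.60 with a pseudocount of 0.1. The other 39 of 48 counts and 29 of 30 medians of the members stayed within 1.5 times or within the members' counting error. Of 120 member folds 6 moved by more, all with a pseudocount of 0.1, those of Wfdc1, Gja1 and Bmp4 becoming 12.0, 5.03 and 4.36 in saline against buffer and 0.0526, 0.249 and 0.129 in STZ against saline. Of 216 list medians 10 moved. In saline against buffer, a pseudocount of 0.1 raised the other ciliary margin genes from 0.56 to 1.19, the lens genes from 0.83 to 1.60 and the pigment genes from 0.22 to 1.25, and a minimum mean of 10 counts raised the pigment genes to 1.06. The median of the dorsal genes, 0.57, was 0.58 with a pseudocount of 0.1. The other 6 were in the STZ comparisons, for the margin, pigment, lens and blood lists. The number of reads limits Otx1 and Msx1 most, at 15 or fewer per library.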
